A study of Mus musculus with 6 samples.

Results

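The genes described here are 10 transcription and early response genes, taken by name from the table of counts per gene: the FOS-family subunits of AP-1 (Fos, Fosb, Fosl1 and Fosl2), its JUN-family subunits (Jun, Junb and Jund), and the early response genes Egr1, Ier2 and Ier3. All 10 were found among 55487 genes in the table, and all 10 were among the 13022 genes that passed the filter on low counts. The libraries were made from 4T-1 cells, a breast cancer line from mouse, and comprised 3 of wild-type cells (WT) and 3 labelled Lyplal1 knockout (KO). RNA was sequenced and counted per gene. All 6 libraries came from untreated cells, so no response to an added stimulus was measured. Whether the cells were at rest when harvested was not tested. The labels carry the short names NC for wild type and sg2 for knockout, and they do not say whether the knockout cells were 1 clone or a pool. Whether libraries of the same group came from separate cultures is not stated either, so p-values measure only the spread between these libraries, which may be technical.

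AP-1 is a dimer of basic leucine zipper proteins that binds short palindromic DNA sites. JUN proteins can pair with one another or with a FOS protein, whereas FOS proteins do not form stable pairs among themselves, and FOS-JUN pairs bind DNA more firmly than JUN pairs. Growth factor and stress signals reach these genes through MAP kinases, serum response factor and CREB, and their RNAs rise fast and are short-lived. Fosl1 and Jun are widely linked to invasive growth of breast cancer cells, while Junb and Jund often act as milder activators or as brakes.

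Total counts per library ran from 16731209 to 17108975. Mitochondrial genes took 1.80% to 1.89% of counts in wild type and 0.514% to 0.551% in knockout, and the part of this in the results below was not tested. Epithelial markers were present in all 6 libraries, with a level summed over 8 genes of 4173 to 4286 CPM (counts scaled to library size) in wild type against 3655 to 3723 CPM in knockout. Within that sum 6 of the 8 were called lower and 2 higher, where 40.9% and 41.3% of all tested genes were. The changes ran from Krt19 at a log2 fold change of -1.95 and Epcam at -1.59 to Cldn4 at 1.21. Lyplal1 itself had 76, 73 and 68 counts in wild type and 54, 48 and 58 in knockout, a log2 fold change of -0.28 ± 0.15 (SE) that was not called (edgeR quasi-likelihood test, adjusted p = 0.0886), although with upper-quartile factors it was (-0.41, edgeR adjusted p = 0.014). Its RNA level therefore does not check the genotype labels. Knockout replicate 3 stood furthest from its group: chi-square per gene was 3.55 and 3.81 against the other knockout libraries, and 1.44 to 1.95 for every other pair within a group. Markers of lung epithelium were all higher in knockout (5 of 5 genes with no overlap, an order shown by 41.7% of tested genes). Their summed counts were 4, 2 and 3 in wild type against 619, 715 and 2455 in knockout replicates 1 to 3. The 4 tested passed the filter only through their knockout libraries, so the direction of their change was set by the filter. Of these 4, 3 were called higher, as were 41.3% of all tested genes, and Sftpa1 was not (edgeR adjusted p = 0.159). Sftpa1 and Cxcl15 were at 0 in all wild-type libraries. Endothelial markers summed to 4, 3 and 3 against 17, 25 and 103 counts, and leukocyte markers to 157, 150 and 151 against 7471, 7104 and 7950, nearly all from Cd68. Of the other leukocyte markers, Lyz2 had 1, 0 and 0 counts in wild type against 28, 45 and 263 in knockout. Csf1r (3, 2 and 2 against 4, 3 and 14) and Adgre1 (0 in each against 0, 0 and 8) were likewise highest in knockout replicate 3, while Ptprc, Cd3e and Itgam had at most 7 counts in any library. Fibroblast and pericyte markers summed to 67.3 to 70.2 CPM in wild type against 168 to 180 CPM in knockout, nearly all from Pdgfra. Col1a1, the only other tested marker of that list, was lower, at a log2 fold change of -1.40 (edgeR adjusted p = 3.66e-05). Col1a2 (2, 1 and 3 counts against 6, 1 and 33), Acta2 (3, 1 and 1 against 6, 3 and 17) and Dcn (1, 2 and 5 against 4, 1 and 16) were highest in knockout replicate 3. The part of these transcripts in the results below was not tested. The 10 genes were refitted without knockout replicate 3, and those values stand beside the results. That refit keeps knockout replicates 1 and 2, with 619 and 715 lung epithelium counts, so it does not remove such transcripts from the comparison. In bulk RNA, fewer expressing cells and less RNA per cell cannot be told apart.

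The stretch directly upstream of the start site is shown for Fos, Jun and Junb, from the table of RefSeq promoters (GRCm38.p6). In all 3 the stretch ends before the gene's start in GENCODE M21. They are shown because Jun and Junb, a pair of related genes, stood far apart in the comparison, and because Fos is the founding member of the family. Each line is the 120 bases before the start, 5′ to 3′ on the gene's strand, and capitals mark TGACGT (the core of a cAMP response element), TGACATCA (a variant of the AP-1 site), TATAAA or CCAAT.
Fos, chr12:85473770-85473889, plus strand: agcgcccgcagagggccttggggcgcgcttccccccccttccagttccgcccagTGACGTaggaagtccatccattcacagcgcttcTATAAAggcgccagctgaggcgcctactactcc
Jun, chr4:95052223-95052342, minus strand: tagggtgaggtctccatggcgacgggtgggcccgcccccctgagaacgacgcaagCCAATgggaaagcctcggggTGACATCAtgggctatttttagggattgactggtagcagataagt
Junb, chr8:84978749-84978868, minus strand: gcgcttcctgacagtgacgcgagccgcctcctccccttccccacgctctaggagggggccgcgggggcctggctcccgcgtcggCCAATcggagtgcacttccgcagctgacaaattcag

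Searched on both strands in the 250 bases upstream of each start, TGACGT was found 66 to 61 bases upstream of Fos and in 6.47% of 32851 promoters of the table; the full element TGACGTCA, in 1.55% of promoters, contains it. TGACATCA lay 45 to 38 bases upstream of Jun and was present in 2.93% of promoters. TATAAA was found for Fos, 33 to 28 bases upstream, and in 12.4% of promoters. CCAAT was found for Jun, Junb and Ier3 and in 33.8% of promoters. The 7 members in the table were Fos, Fosb, Fosl2, Jun, Junb, Jund and Ier3, and none of them held TGACTCA or its reverse complement TGAGTCA in this window, a site found in 4.46% of promoters. None held the CArG box of serum response factor in this window either, which 1.47% of promoters did. Bases further upstream were not searched, and Fosl1, Egr1 and Ier2 had no promoter to search, so a site there would be missed. These are matches of letters and do not show that a factor binds.

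The 10 genes covered a wide range of levels. On the deposited TPM, which are scaled by gene length and so can be compared between genes, the wild-type means were 1304 for Ier3, 1139 for Junb, 788 for Jund, 274 for Ier2, 236 for Jun, 90 for Fosl2, 79.6 for Fosl1, 23.6 for Egr1, 6.37 for Fosb and 3.25 for Fos. No 2 neighbours in this order overlapped over the 3 libraries. Ier3 and Junb each lay above 99.6% of tested genes in wild type, while Fos, the best known subunit, lay above only 13.1%. In knockout the order was Junb at 870, Jund at 577, Ier3 at 364, Jun at 97.3, Fosl2 at 78.8, Ier2 at 28.1, Fosl1 at 14.4, Fosb at 2.13, Fos at 1.54 and Egr1 at 0.531 TPM, again with no overlap between neighbours. Egr1 fell from above 45.4% of tested genes in wild type to above 4.3% in knockout, and Ier2 from above 96% to above 52.9%.

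**Figure D1:**
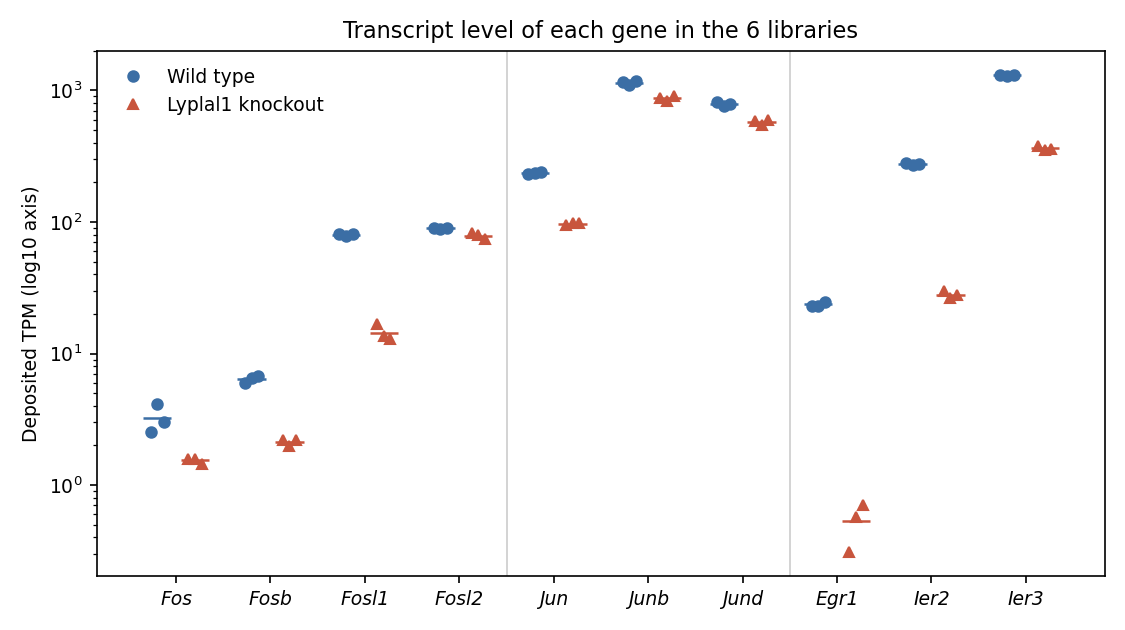
Deposited TPM of the 10 genes (log10 axis) in each wild-type library (circles) and each Lyplal1 knockout library (triangles), with the group mean as a line. Egr1 and Ier2 show the widest gaps between groups, and Fosl2, Junb and Jund the narrowest.

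In the comparison of knockout with wild type, 9 of the 10 genes were called lower, none was called higher and Fosl2 was not called (edgeR quasi-likelihood test, Benjamini-Hochberg adjustment over all tested genes). Lower calls were common among all tested genes too, at 40.9%, and 82.3% of all tested genes were called in either direction. At least 2-fold lower were 6 of the 10 genes, against 15.6% of all tested genes that were called and at least 2-fold lower. The median log2 fold change was -1.22 over the 10 genes and 0.00 over all tested genes. In all 9 called genes each wild-type library stood above each knockout library, an order shown by 41.4% of tested genes, while 41.7% of them showed the opposite order. Egr1 passed the filter only through its wild-type libraries and therefore had to differ, while the other 9 passed it in all 6 libraries, and 8 of those 9 were called lower.

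**Figure D2:**
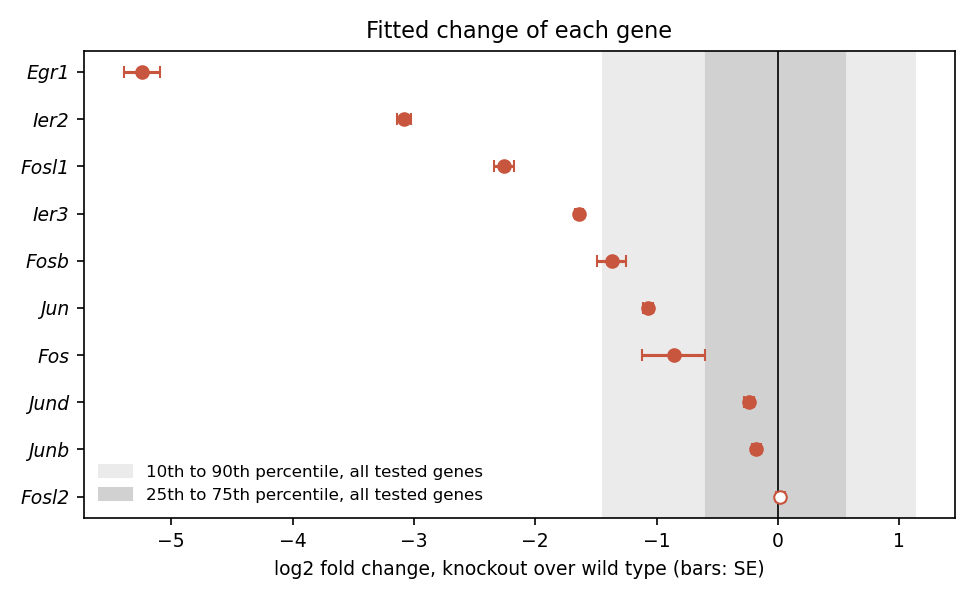
Fitted log2 fold change of each gene, knockout over wild type, with its standard error (horizontal bars); the open circle marks the gene that was not called, and shaded bands hold the middle of all 13022 tested genes. Egr1, Ier2, Fosl1 and Ier3 lie below the 10th percentile of all tested genes, which is -1.44.

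Among the FOS family, Fosl1, which encodes FRA-1, had 686, 661 and 688 counts in wild type and 147, 118 and 114 in knockout. Every wild-type library was far above every knockout library. Its level went from 38.0 ± 0.846 to 7.91 ± 1.11 CPM (SD, n = 3 per group), a drop of 4.8-fold (log2 fold change -2.26 ± 0.0811 SE, edgeR adjusted p = 2.20e-19). Without knockout replicate 3 the change was -2.19. Of the 2033 exon bases of Fosl1 (chromosome 19, 5447547 to 5455946, GRCm38), 1163 are shared with Ccdc85b on the other strand, and the strand setting of the counting is not given in the sources used here. Ccdc85b fell less, at a log2 fold change of -0.42 ± 0.0453 (SE).

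Fosl2, which encodes FRA-2, had 3665, 3603 and 3680 counts in wild type and 3441, 3329 and 3133 in knockout. In CPM, which corrects for library size and composition, the groups overlapped, at 202 to 207 in wild type and 197 to 215 in knockout. Its log2 fold change was 0.02 ± 0.0362 (SE, edgeR adjusted p = 0.693). The sign of this small value depended on the scaling: with upper-quartile factors it was -0.12 (adjusted p = 4.63e-03), and on log2(TPM + 1) it was -0.19 (limma-trend adjusted p = 3.37e-03). These settings also moved the median of all tested genes, by -0.13 and -0.19, and relative to that median Fosl2 stayed between -0.01 and 0.05 in every setting.

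Fosb had 155, 169 and 176 counts in wild type and 59, 53 and 61 in knockout, so that each knockout library held well under the lowest wild-type count. It encodes FOSB and, by splicing, a shorter form that lacks part of the activation domain, which counts per gene do not separate. Its level went from 9.34 ± 0.633 to 3.61 ± 0.273 CPM (SD, n = 3 per group), a log2 fold change of -1.37 ± 0.121 (SE, edgeR adjusted p = 7.00e-11). Fos had few counts at this depth, with 25, 41 and 30 counts in wild type and 16, 16 and 15 in knockout. The groups did not overlap, but wild-type replicate 2 stood above the other wild-type libraries. The fall of Fos was called, with a log2 fold change of -0.86 ± 0.26 (SE, edgeR adjusted p = 0.00362), and of -0.65 without wild-type replicate 2. Without knockout replicate 3 the changes were -1.41 for Fosb, -0.83 for Fos and 0.06 for Fosl2.

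The makeup of the FOS-family RNA pool differed between the groups. Fosl2 made up 50.4%, 50.2% and 50.1% of the summed FOS-family TPM in wild type and 80.1%, 82.4% and 81.8% in knockout. The share of Fosl1 was 44.9%, 43.8% and 44.6% in wild type against 16.3%, 13.9% and 14.2% in knockout. Fosb held 3.30%, 3.65% and 3.71% in wild type, then 2.13%, 2.03% and 2.47% in knockout. None of these 3 shares overlapped between the groups (exact two-sided permutation test, p = 0.10, the smallest that 3 against 3 libraries allow). The share of Fos did overlap, at 1.41% to 2.35% in wild type against 1.53% to 1.63% in knockout (exact p = 0.70). From counts with no length scaling it did not, at 0.552% to 0.916% against 0.437% to 0.455% (exact permutation p = 0.10). The ratio of Fosl2 to Fosl1 went from 1.13 ± 0.0128 to 5.54 ± 0.544 (SD, n = 3 per group). The summed FOS-family level went from 179 ± 1.56 to 96.8 ± 6.61 TPM (SD). On log2(TPM + 1) the median log2 fold change of all tested genes was -0.19, a shift that this sum includes and the shares do not. The shares do not depend on library scaling but do depend on gene length: from counts with no length scaling, Fosl2 held 80.6% of the family in wild type and 94.3% in knockout.

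**Figure D3:**
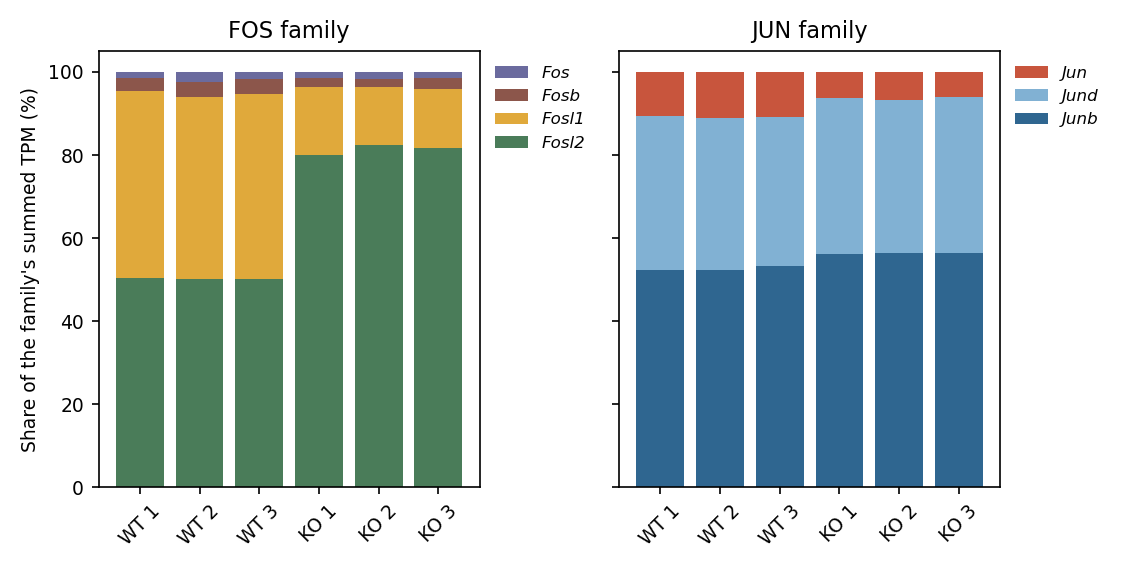
Share of each gene in the summed TPM of the FOS family (left) and the JUN family (right), in percent, for each wild-type (WT) and knockout (KO) library. Fosl1 fills 43.8% to 44.9% of the FOS bar in wild type and 13.9% to 16.3% in knockout, while the JUN bars are led by Junb in all 6 libraries.

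In the JUN family, Jun, the subunit with the strongest activation domain, had 3112, 3111 and 3224 counts in wild type and 1311, 1349 and 1371 in knockout. The libraries of each group lay close together, and the groups were far apart. Its level went from 176 ± 4.18 to 84.1 ± 2.16 CPM (SD, n = 3 per group), a drop of 2.1-fold (log2 fold change -1.07 ± 0.0388 SE, edgeR adjusted p = 2.99e-19). Without knockout replicate 3 the change was -1.08. Jun is a single-exon gene of 3189 bases (chromosome 4, 95049034 to 95052222, minus strand), and 232 of its bases overlap the antisense RNA Junos. Junos had 89, 94 and 101 counts in wild type and 6, 6 and 14 in knockout. These counts were small beside those of Jun in both groups.

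Junb had 8743, 8243 and 8928 counts in wild type and 6754, 6496 and 7190 in knockout. In CPM it went from 484 ± 20.2 to 427 ± 23.8 (SD, n = 3 per group), a narrow gap with no overlap. The change was 1.13-fold (log2 fold change -0.18 ± 0.0384 SE, edgeR adjusted p = 1.44e-04), and against a change of 1.2-fold, where 32% of all tested genes were called lower, it was not called (edgeR adjusted p = 1). Jund had 5730, 5272 and 5528 counts in wild type and 4163, 3937 and 4408 in knockout. Its level went from 309 ± 12.2 to 261 ± 15.8 CPM (SD, n = 3 per group), a log2 fold change of -0.24 ± 0.0401 (SE, edgeR adjusted p = 6.70e-06). Jund likewise was not called against a change of 1.2-fold (edgeR adjusted p = 0.552). Without knockout replicate 3 the changes were -0.22 for Junb and -0.28 for Jund. Junb shares 173 exon bases with Prdx2 on the other strand, which fell by 0.41 on the log2 scale, and the 877 bases that Jund shares with the gene model Gm11175 carried no count for that model.

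The share of Jun in the summed JUN-family TPM was 10.6%, 11.2% and 10.9% in wild type against 6.19%, 6.64% and 6.10% in knockout. Junb rose in share from 52.3%, 52.4% and 53.3% to 56.2%, 56.3% and 56.4% of the pool. Both shares were without overlap between the groups (exact two-sided permutation test, p = 0.10, the smallest possible). For Jund the exact p was 0.20, with 35.8% to 37.2% in wild type and 37.0% to 37.6% in knockout. From counts with no length scaling the Jund shares did not overlap, at 31.3% to 32.6% against 33.4% to 34% (exact permutation p = 0.10). The summed JUN-family level went from 2163 ± 70.7 to 1544 ± 60 TPM (SD, n = 3 per group). Sums on the TPM scale include the shift of all tested genes there, a median of -0.19 on log2(TPM + 1). JUN-family RNA exceeded FOS-family RNA by 12.1-fold in wild type and 16-fold in knockout on the TPM scale, but by 3.82-fold and 3.53-fold from counts with no length scaling, so the direction of this difference depended on the length scaling.

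Of the early response genes, Egr1, a zinc finger factor that serum response factor and ERK signals switch on, had 428, 432 and 468 counts in wild type and 6, 11 and 14 in knockout. No other gene of the 10 showed so wide a gap. Its level went from 24.8 ± 1.31 to 0.648 ± 0.255 CPM (SD, n = 3 per group), a drop of 37.9-fold (log2 fold change -5.24 ± 0.151 SE, edgeR adjusted p = 1.91e-21). In knockout its replicates spread by 39.4% of their mean, and the change was -4.97 without knockout replicate 1 and -5.52 without knockout replicate 3. Of its relatives, named after their values were seen, Egr2 and Egr3 passed the filter only through their wild-type libraries and therefore had to differ, and Egr4 had no count in any library. Egr3 had 152, 117 and 136 counts in wild type and 10, 4 and 6 in knockout, and Egr2 had 46, 33 and 29 against 1, 0 and 0, a pooled ratio of 96.6 between wild type and knockout (exact 95% interval 17 to 3850, counting error only).

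Ier2, a short nuclear protein gene of a single exon (chromosome 8, 84661331 to 84662852), had 1796, 1709 and 1753 counts in wild type and 196, 172 and 188 in knockout. Both groups were tight, and the gap between them was the second widest. Its level went from 98.2 ± 2.23 to 11.6 ± 0.781 CPM (SD, n = 3 per group), a log2 fold change of -3.08 ± 0.0595 (SE, edgeR adjusted p = 2.46e-25). Ier3, also called IEX-1, affects cell survival and is a target of NF-kB as well as of growth factors. It had 6191, 6075 and 6274 counts in wild type and 1851, 1717 and 1771 in knockout. The groups were again far apart, at 346 ± 6.12 and 111 ± 4.26 CPM (SD, n = 3 per group), a log2 fold change of -1.64 ± 0.0365 (SE, edgeR adjusted p = 6.13e-24). Without knockout replicate 3 the changes were -3.09 for Ier2 and -1.63 for Ier3.

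**Figure D4:**
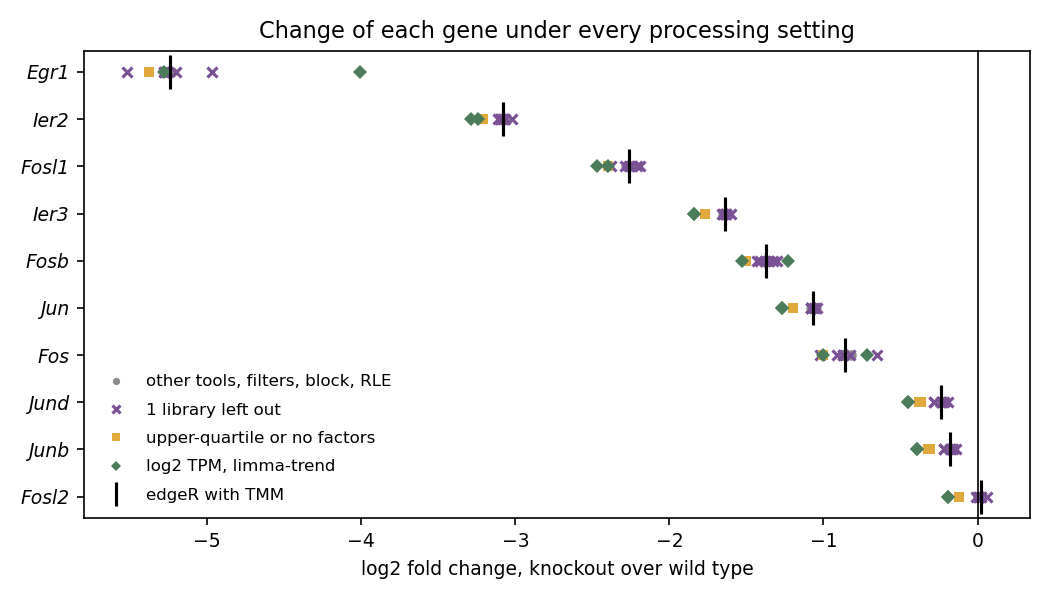
Log2 fold change of each gene, knockout over wild type, under every processing setting tried; the black tick is the edgeR value with TMM factors, crosses leave out 1 library, squares use upper-quartile or no factors, diamonds use log2 TPM and grey circles stand for the other settings. The points of a gene stay on the same side of 0, with the exception of Fosl2, and the diamond of Egr1 nearest to 0, at -4.01, uses log2(TPM + 1).

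The wider immediate early class held genes of both directions. Of 23 tested genes of a list of 26 other immediate early genes, 16 were called lower and 7 higher, with a median log2 fold change of -1.40, beside 40.9% lower and 41.3% higher over all tested genes. The 16 include Egr2 and Egr3, which passed the filter only through wild type and had to differ. Rhob, a small GTPase gene, fell by 2.92 on the log2 scale, from 329 ± 9.78 to 43.4 ± 1.08 CPM (SD, n = 3 per group). Ccn2, a matricellular protein gene and YAP target, fell by 2.98, and Trib1, a pseudokinase gene, fell by 2.48. Zfp36, whose protein binds AU-rich elements and speeds RNA decay, rose from 19.5 ± 1.29 to 90.2 ± 7.25 CPM (SD, n = 3 per group), 4.63-fold. Klf6, a zinc finger factor, fell by 1.44. Klf10, Plk3 and Gadd45b rose 2.06-fold, 2.27-fold and 1.48-fold.

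AP-1 subunits can also pair with proteins outside the FOS and JUN families. Of 12 tested genes of the ATF, BATF, JDP and MAF families 7 were called higher and 3 lower, with a median log2 fold change of 0.52, and no test sets this list apart from all tested genes, of which 41.3% were called higher. Atf3, a stress-induced factor, had 756, 665 and 688 counts in wild type and 2522, 2638 and 2670 in knockout and rose 4.15-fold. The small MAF gene Mafk rose 2.66-fold, Atf1 2.61-fold and Atf4 1.68-fold. Atf2, a classical partner of JUN, was lower in knockout at a log2 fold change of -0.51 ± 0.0401 (SE), Jdp2, a repressor of AP-1, at -0.57 ± 0.0584 (SE), and Maff, a small MAF gene, at -0.15 ± 0.0629 (SE). Batf2, named after its values were seen, passed the filter only through knockout, with no wild-type count and 64, 51 and 53 counts in knockout, at least 62.6-fold higher (floor of 3 counts over the wild-type group).

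Genes upstream of the AP-1 genes changed in both directions. Of 21 tested MAP kinase cascade genes 8 were called lower and 11 higher, with a median log2 fold change of 0.18, against 40.9% and 41.3% over all tested genes and a median of 0.00. Mapk3, which encodes a kinase of the ERK cascade, was at -0.54 ± 0.0389 (log2 fold change, SE). Rps6ka5, which encodes the histone and CREB kinase MSK1, went from 37.8 ± 1.70 to 8.76 ± 1.06 CPM (SD, n = 3 per group), 4.32-fold higher in wild type, and Map2k3, a p38 activator, was 2.17-fold higher in wild type. The kinase genes Araf and Mapk9 rose 1.67-fold and 1.52-fold, and the small GTPase gene Hras rose 1.88-fold. Of the 10 genes for serum response factor, its cofactors, CREB factors and the EGR corepressors, 5 were called lower and 4 higher (median -0.11), shares that again lie near those of all tested genes. Srf rose 1.6-fold and its partner Elk1 2.11-fold, while Elk3, which can repress such sites, fell by 1.13 on the log2 scale. Elk4 rose 1.2-fold, Creb1 fell by 0.56 and Crem by 0.68. Of the corepressors of EGR1, Nab1 rose 2.07-fold and Nab2, itself a target of EGR factors, fell by 0.72.

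Of 12 genes for turnover of JUN protein or decay of AU-rich RNA, 8 were called lower and 3 higher (median log2 fold change -0.41), where 40.9% and 41.3% of all tested genes were. Trib2, a pseudokinase gene, went from 761, 745 and 811 counts to 13 in each knockout library and was 52.7-fold higher in wild type. Zfp36l2 and Zfp36l1, relatives of Zfp36, dropped 3.46-fold and 2.14-fold, and Cnot7, a deadenylase subunit gene, 1.94-fold, whereas Zfp36 itself rose. The 3 rises, in Elavl1, Cop1 and Det1, were 1.21-fold, 1.27-fold and 1.2-fold, and against a change of 1.2-fold and on log2 TPM none of the list was called higher.

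The pentamer ATTTA, the core of AU-rich elements, occurred in the longest annotated 3′ untranslated region of 9 of the 10 genes and of 74.6% of 10642 tested genes with at least 200 bases there. At least 3 copies were present in 4 of the 10, namely Fos with 4, Jun with 4, Ier3 with 5 and Fosl2 with 8, against 42.4% of tested genes. The longer element TTATTTATT, which contains ATTTA, occurred in Fos and Fosl2 and in 8.81% of tested genes. Ier2 held none of these. Regions differ in length: per kilobase, Ier3 held 8.16 copies, Fos 4.91, Junb 4.12 and Jun 3.24, against a median of 1.31 over the tested genes. Nearer that median were Jund at 1.88, Fosl2 at 1.72, Egr1 at 1.64 and Fosl1 at 1.57. Fosb, at 0.434, and Ier2 lay below it.

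Genes often described as AP-1 targets also moved both ways. Of 23 tested, 13 were called lower and 8 higher, with a median log2 fold change of -0.68; of all tested genes 40.9% were lower and 41.3% higher. Among the 13 was Mmp10, which passed the filter only through wild type, and among the 8 was Il6, which passed it only through knockout. Both therefore had to differ. Hbegf, an EGF receptor ligand gene, was 2.72-fold, the matrix protease gene Mmp14 2.52-fold and the adhesion receptor gene Cd44 2.2-fold higher in wild type. Ptgs2, cyclooxygenase 2, rose 2.54-fold, the receptor kinase gene Axl 1.45-fold, Hmga1, a chromatin protein gene, 1.41-fold and Spp1, osteopontin, 1.37-fold.

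**Figure D5:**
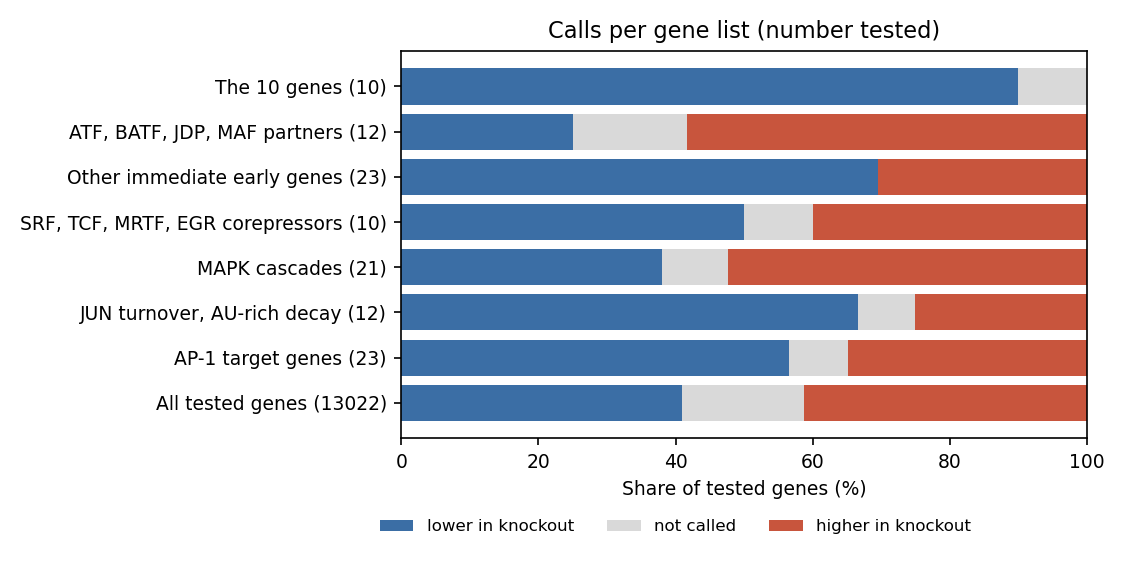
Share of tested genes called lower (left), not called (middle) and called higher (right) in knockout, in percent, for the 10 genes, 6 related lists and all tested genes, with the number tested in brackets. Lower calls make up 9 of the 10 genes and 16 of 23 other immediate early genes, against 40.9% of all tested genes. Some called genes (Egr1, Egr2, Egr3, Mmp10, Il6 and Batf2) passed the filter only through the group where they were high.

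The tested genes whose log2 CPM, centred per gene over the 6 libraries, lay nearest to the mean profile of the 9 genes called lower were Spata13, Jade2, Tsc22d1, Lbh and Ccdc136. Their Euclidean distances over 6 libraries were 0.0638 to 0.117 on the log2 scale, and their log2 fold changes -1.70 to -1.79, against -1.74 for the mean profile. These genes were picked for that nearness, so it is a description and no test.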

How the data were processed

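Per the submitters' processing notes, STAR 2.7.8a, featureCounts 2.0.1 and GRCm38 were used; their roles are not stated, and the annotation release, strand setting and handling of shared reads were not given in the sources used here. Files deposited by the authors hold raw counts and TPM per gene. The 12 files of single libraries matched the 2 tables of all libraries, so those tables were used. The deposited TPM equalled counts divided by a length common to all libraries, in 9182 genes checked; for Junb that length was 0.786 of the merged exon length in GENCODE M21. Symbols come from M21 (55227 of 55487 identifiers). Promoters are from RefSeq.

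Counts were filtered with filterByExpr and fitted with edgeR's quasi-likelihood F test (robust, TMM factors, two-sided, Benjamini-Hochberg over 13022 genes, threshold 0.05). SE were derived from the change and its F statistic. CPM use TMM-adjusted library sizes, and log2 fold changes set knockout over wild type. Shares used exact permutation tests. The fit was also run on simulated counts with 100 genes changed 1.5-fold and 100 changed 2-fold. It recovered 79% and 92% of them, with 9 calls among unchanged genes. In these data 82.3% of tested genes were called, far more than were changed there, so that run cannot check the scaling factors.

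The members and lists were chosen with earlier results of these data known. Named genes are the 10 members, Lyplal1, up to 4 called genes with the smallest adjusted p per direction from each list, cell-type markers of at least 10 CPM in a group, not all of which are described, and the 5 nearest profiles. Exon-sharing partners, markers under 10 CPM in both groups, Egr2, Egr3, Egr4, Batf2, Mmp10 and Il6 were named after their values were seen. A few list members chosen this way are not reported here. Alternatives were RLE, upper-quartile or no factors, DESeq2, limma-voom, no or a stricter filter (1 CPM in 3 libraries), a 1.2-fold test, a block for the replicate number, log2(TPM + 1) and log2(TPM + 0.1) with limma-trend, and leaving out each library. The fits ran in edgeR 4.0.16, DESeq2 1.42.0 and limma 3.58.1 under R 4.3.3, the permutations in SciPy 1.17.1 under Python 3.11.15.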

Additional observations from a re-analysis of the deposited data

How the results depend on the processing

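Over 17 alternatives, Fos, Fosb, Fosl1, Jun, Egr1, Ier2 and Ier3 were called lower in each. Junb (-0.18, adjusted p = 1) and Jund (-0.24, adjusted p = 0.552) were not called against a 1.2-fold change, the count of members called lower ran from 7 to 10, and the count called higher was 0. Fosl2 changed sign with upper-quartile factors (-0.12), no factors (-0.12), log2(TPM + 1) (-0.19), log2(TPM + 0.1) (-0.19) and without knockout replicate 1 (-0.01, between -0.01 and 0.06 over the libraries left out), and it was called lower in the first 4. The median of all tested genes moved by -0.13, -0.14, -0.19 and -0.21 in those 4 settings, and the lower share of calls from 49.8% to 57.2%, 57.4%, 61.5% and 61.5%. Higher calls among JUN turnover and AU-rich decay genes went from 3 to 0 against a 1.2-fold change and on both TPM scales. Every other count of the related lists stayed within 1.5 times.

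With counts and no length scaling, the differences in share, knockout minus wild type, became -2.03 percentage points for Fosb, -11.4 for Fosl1, 13.7 for Fosl2, -7.3 for Jun, 5.34 for Junb and 1.96 for Jund. The ratio differences became 21 for Fosl2 over Fosl1, 2.33 for Junb over Jun and, reversed, -0.29 for JUN over FOS family. With M21 exon lengths they were -5.11 points for Jun and 3.23 for Junb over Jun. The share of Fos reversed to 0.0443 points without wild-type replicate 2 (-0.423 to 0.0443 over the libraries left out).

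With the replicate number as a block, 9 members were called lower, 0 higher, and 5368 and 5430 of all genes. Same-numbered libraries did not deviate together (correlations -0.00742, 0.0416 and 0.0132), and not every library correlated best with its own number, so the numbers were not taken as pairs. Depth limits Fos (15 to 41 counts) and Egr1 in knockout (6 to 14 counts).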
